A study of Mus musculus with 2 samples.

Results

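The variable segments of the T cell receptor were followed in single cells from MC38 tumours, MC38 being a colon carcinoma line of the mouse. All symbols of the deposited gene table that begin with Trav, Trbv, Trgv or Trdv were taken, which gave 102 of 17775 genes: 72 Trav, 25 Trbv, 1 Trgv (Trgv2) and 4 Trdv (Trdv1, Trdv2-2, Trdv4 and Trdv5). They were read in cells with at least 1 UMI (unique molecular identifier, 1 captured RNA molecule) of Cd3d, Cd3e and Cd3g together, genes of the invariant CD3 chains, which gave 1844 DFMO cells and 1345 water cells of 10571 kept cells. The groups were C57BL/6 mice that carried implanted MC38 tumours and were given either DFMO, an inhibitor of the polyamine enzyme ornithine decarboxylase, or water, by gavage for 14 days from day 7. Their age is not given in the sources used here. Ficoll-separated immune cells of 4 tumour-bearing mice were mixed into a single 10x Chromium 5' library in each group. With 1 library a group, a difference between the groups cannot be told apart from a difference between these mice or these preparations, and no p-value is given anywhere. Intervals in parentheses are exact 95% intervals and cover counting error only.

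A T cell receptor is a pair of chains, alpha with beta or gamma with delta, and each chain's binding domain is encoded mainly by 1 variable segment that DNA rearrangement joins to the rest of the gene during development in the thymus. Daughter cells inherit the joined genes, so cells of 1 clone share their segments, while the converse does not hold: cells of different clones can share a segment, because the joint itself adds most of the diversity. The joint sequence is not part of the deposited values, so a shared pair of segments below is not a clonotype. Productive rearrangement of beta usually occurs on 1 chromosome only, whereas alpha can rearrange on both, and many T cells carry RNA of a second alpha segment. CD8 T cells read peptides on MHC class I, CD4 T cells on MHC class II, and Pdcd1 (PD-1), Lag3 and Havcr2 (TIM-3) are inhibitory receptors of T cells that have met antigen for long.

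The sequences of the 6 members on which the results turn are those of mm10 (GRCm38), read at the coordinates of GENCODE M21, which held all 102 members. They give the last 290 bases of the variable exon, 5′ to 3′ on the coding strand. Trbv12-1 lies at chr6:41113778-41114067 (+) and Trbv12-2, of the same family, at chr6:41119075-41119364 (+). Trav16 lies at chr14:53743416-53743705 (+), and its copies in duplicated stretches of the alpha locus, Trav16n and Trav16d-dv11, at chr14:53351332-53351621 (+) and chr14:53047532-53047821 (+). Trgv2 lies at chr13:19336573-19336862 (-). Capitals mark the bases at which Trbv12-1 and Trbv12-2 differ, at which the Trav16 segments differ among themselves, and at which Trgv2 differs from Tcrg-V1, a gamma segment outside the naming rule.
Trbv12-1: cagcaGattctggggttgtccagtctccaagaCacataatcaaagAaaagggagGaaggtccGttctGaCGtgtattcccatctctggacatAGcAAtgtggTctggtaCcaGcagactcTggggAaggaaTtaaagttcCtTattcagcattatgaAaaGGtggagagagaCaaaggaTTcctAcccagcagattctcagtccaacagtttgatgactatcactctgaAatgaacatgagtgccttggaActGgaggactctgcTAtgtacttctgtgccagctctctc
Trbv12-2: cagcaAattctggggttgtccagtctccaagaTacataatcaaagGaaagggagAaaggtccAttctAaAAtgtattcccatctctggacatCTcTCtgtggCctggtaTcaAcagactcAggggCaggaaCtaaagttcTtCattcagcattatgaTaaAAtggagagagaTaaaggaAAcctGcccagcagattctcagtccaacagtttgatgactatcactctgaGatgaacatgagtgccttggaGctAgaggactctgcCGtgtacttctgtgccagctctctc
Trav16: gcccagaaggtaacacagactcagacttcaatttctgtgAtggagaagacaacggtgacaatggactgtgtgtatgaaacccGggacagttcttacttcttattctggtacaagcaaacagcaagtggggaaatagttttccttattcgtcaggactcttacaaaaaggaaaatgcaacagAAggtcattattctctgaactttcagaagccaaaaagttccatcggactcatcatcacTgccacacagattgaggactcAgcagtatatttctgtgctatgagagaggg
Trav16n: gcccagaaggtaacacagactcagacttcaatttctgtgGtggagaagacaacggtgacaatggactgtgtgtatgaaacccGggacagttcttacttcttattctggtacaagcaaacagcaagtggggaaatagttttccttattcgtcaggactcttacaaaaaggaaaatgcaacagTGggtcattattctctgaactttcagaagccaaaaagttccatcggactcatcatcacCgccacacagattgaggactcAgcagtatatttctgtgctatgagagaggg
Trav16d-dv11: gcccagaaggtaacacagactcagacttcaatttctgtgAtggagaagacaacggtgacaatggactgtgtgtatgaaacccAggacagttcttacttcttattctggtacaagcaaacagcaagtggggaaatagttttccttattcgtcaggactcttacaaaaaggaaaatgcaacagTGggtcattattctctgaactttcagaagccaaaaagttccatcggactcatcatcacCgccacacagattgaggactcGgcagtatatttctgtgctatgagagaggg
Trgv2: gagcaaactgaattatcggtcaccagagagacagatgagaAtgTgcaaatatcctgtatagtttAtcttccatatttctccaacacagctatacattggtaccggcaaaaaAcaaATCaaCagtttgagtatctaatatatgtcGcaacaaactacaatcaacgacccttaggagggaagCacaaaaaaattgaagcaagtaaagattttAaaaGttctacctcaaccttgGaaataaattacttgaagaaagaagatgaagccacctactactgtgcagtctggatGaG
The variable exons of Trbv12-1 and Trbv12-2 were 89.1% identical, with 32 differing positions, while those of Trav16, Trav16n and Trav16d-dv11 were 97.7% to 98.3% identical. A read from the Trav16 family can therefore often fit more than 1 member. Of the stretches of 31 bases in Trav16, Trav16n and Trav16d-dv11, 67.2%, 68.9% and 70.9% also occurred in transcripts of other genes, against 3.90% for Trbv12-1. Over the members the median shared proportion was 62.3% for Trav and 0% for Trbv, where 3 of 25 segments shared at least 50%. The 3 Trav16 segments are treated below as a family wherever the distinction could matter.

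Trbv RNA was concentrated in Cd3-positive cells. A Trbv UMI was found in 91.4% of DFMO Cd3-positive cells (90.1 to 92.7) and in 80.5% of water Cd3-positive cells (78.3 to 82.6), at medians of 2175 and 3017 UMIs per cell. A Trav UMI was found in 73.8% (71.7 to 75.8) of DFMO cells and 69.4% (66.9 to 71.9) of water cells. Cells without Cd3 UMIs gave the background: 0.815% of 2577 DFMO cells and 0.728% of 4805 water cells had a Trbv UMI, at medians of 2226 and 8253 UMIs. A Trav UMI was found in 2.83% of these DFMO and 4.39% of these water cells, so the background of Trav was higher. Among those with B cell genes the Trbv share was 0.397% in DFMO and 0.901% in water, and among those with macrophage genes 0.513% in DFMO and 0.407% in water. The DFMO cells had more Trbv UMIs per cell although they were shallower, with means of 8.42 in DFMO and 5.88 in water. After every cell was thinned to 1000 UMIs, Trbv was detected in 79.9% of DFMO and 63.6% of water Cd3-positive cells.

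Each cell was assigned the segment of a chain with more UMIs than any other of that chain, and cells with a tie were left uncalled. A beta segment was called in 1643 DFMO and 1057 water cells, and an alpha segment in 1244 DFMO and 862 water cells. Every Trav segment was called in at least 1 cell, and Trbv21 was the Trbv segment never called; 56 Trav and 21 Trbv segments were called in at least 10 cells. Cells with Cd8a or Cd8b1 UMIs and no Cd4 are called CD8 below, and those with Cd4 and neither CD8 gene CD4. Cells with at least 2 UMIs of Pdcd1, Lag3 and Havcr2 together are called checkpoint-high. CD8 checkpoint-high cells numbered 285 in DFMO and 482 in water, other CD8 cells 565 and 332, and CD4 cells 325 and 122. CD8 checkpoint-high cells were deeper, at medians of 4885 UMIs in DFMO and 3987.5 in water, than other CD8 cells, at 2238 in DFMO and 2270.5 in water. Of Cd3-positive cells, 626 DFMO and 390 water cells had UMIs of neither coreceptor. A Trbv UMI was found in 82.9% of these DFMO and 60% of these water cells, against 95.3% and 90.5% of CD8 cells.

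The checks on these sets were as follows. All 7 T cell genes of the marker list were present in Cd3-positive cells of both libraries. Macrophage genes (Csf1r, C1qa, Lyz2 and Adgre1) summed to 187 CPM (the per-million level of a set's UMIs) in DFMO and 556 in water Cd3-positive cells, and to 5.77 and 78.8 in CD8 checkpoint-high cells, where 1 of the 4 was at 0 in DFMO. Among other CD8 cells they summed to 143 CPM in DFMO and 915 in water. B cell genes (Cd79a, Cd79b and Ms4a1) summed to 152 and 14.8 CPM in Cd3-positive cells and to 18.5 and 1.58 in CD8 checkpoint-high cells, where 1 of the 3 was at 0 in water. The B cell genes summed in other CD8 cells to 114 CPM in DFMO and 10.8 in water, where 2 of the 3 were at 0. The part of these genes' source cells in the differences between libraries and sets was not tested. Of all barcodes, 37 occurred in both libraries, on 13 DFMO and 10 water Cd3-positive cells.

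Other CD8 cells differed in makeup between the libraries. Lef1, a transcription factor gene, Ccr7, a homing receptor gene, and S1pr1, the receptor gene for exit from tissue, are high in T cells that have not met antigen or that recirculate; they were chosen after their values were seen. In other CD8 cells Lef1 stood at 479 CPM in DFMO and 95.7 in water, Ccr7 at 483 and 115, and S1pr1 at 215 and 45.2. A UMI of any of the 3 was found in 86.0% of DFMO and 33.4% of water other CD8 cells, against 14.7% and 8.30% of CD8 checkpoint-high cells. Effector genes (Gzmb, Gzmk, Gzmf, Prf1 and Nkg7) went the other way in other CD8 cells, with a sum of 1966 CPM in DFMO and 4141 in water. CD4 cells differed likewise, with Lef1 at 454 CPM in DFMO and 75.5 in water. The ratios below of checkpoint-high over other CD8 cells and of DFMO over water set cells of this differing makeup side by side. Among other CD8 cells with a UMI of none of Lef1, Ccr7 and S1pr1, Trbv12-1 (described below) was called in 7 of 66 DFMO cells (10.6%; 4.37 to 20.6) and 17 of 178 water cells (9.55%; 5.66 to 14.9). Among those of the checkpoint-high set Trbv12-1 was called in 84 of 228 DFMO cells (36.8%; 30.6 to 43.5) and 150 of 405 water cells (37.0%; 32.3 to 41.9), so it stood higher there in both libraries. The part of this makeup in the other results was not tested.

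Trbv12-1 was the leading beta segment of CD8 checkpoint-high cells in both libraries and was rare in CD4 cells. It was called in 92 of 268 DFMO CD8 checkpoint-high cells (34.3%; 28.7 to 40.3), against 50 of 524 other CD8 cells (9.54%; 7.17 to 12.4). In water it was called in 165 of 443 CD8 checkpoint-high cells (37.2%; 32.7 to 41.9), against 23 of 278 other CD8 cells (8.27%; 5.32 to 12.2). The intervals of the sets did not overlap in either library, and the log2 ratio of checkpoint-high over other was 1.85 (1.33 to 2.37) in DFMO and 2.17 (1.54 to 2.87) in water. Of CD4 cells, 2 of 305 in DFMO and 2 of 98 in water had this call. The log2 ratio of CD8 over CD4 was 4.77 (2.89 to 7.83) in DFMO and 3.68 (1.80 to 6.73) in water. Trbv12-2, of the same family, made up 7.20% of DFMO and 11.2% of water CD8 cells, against 1.64% and 5.10% of CD4 cells.

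**Figure D1:**
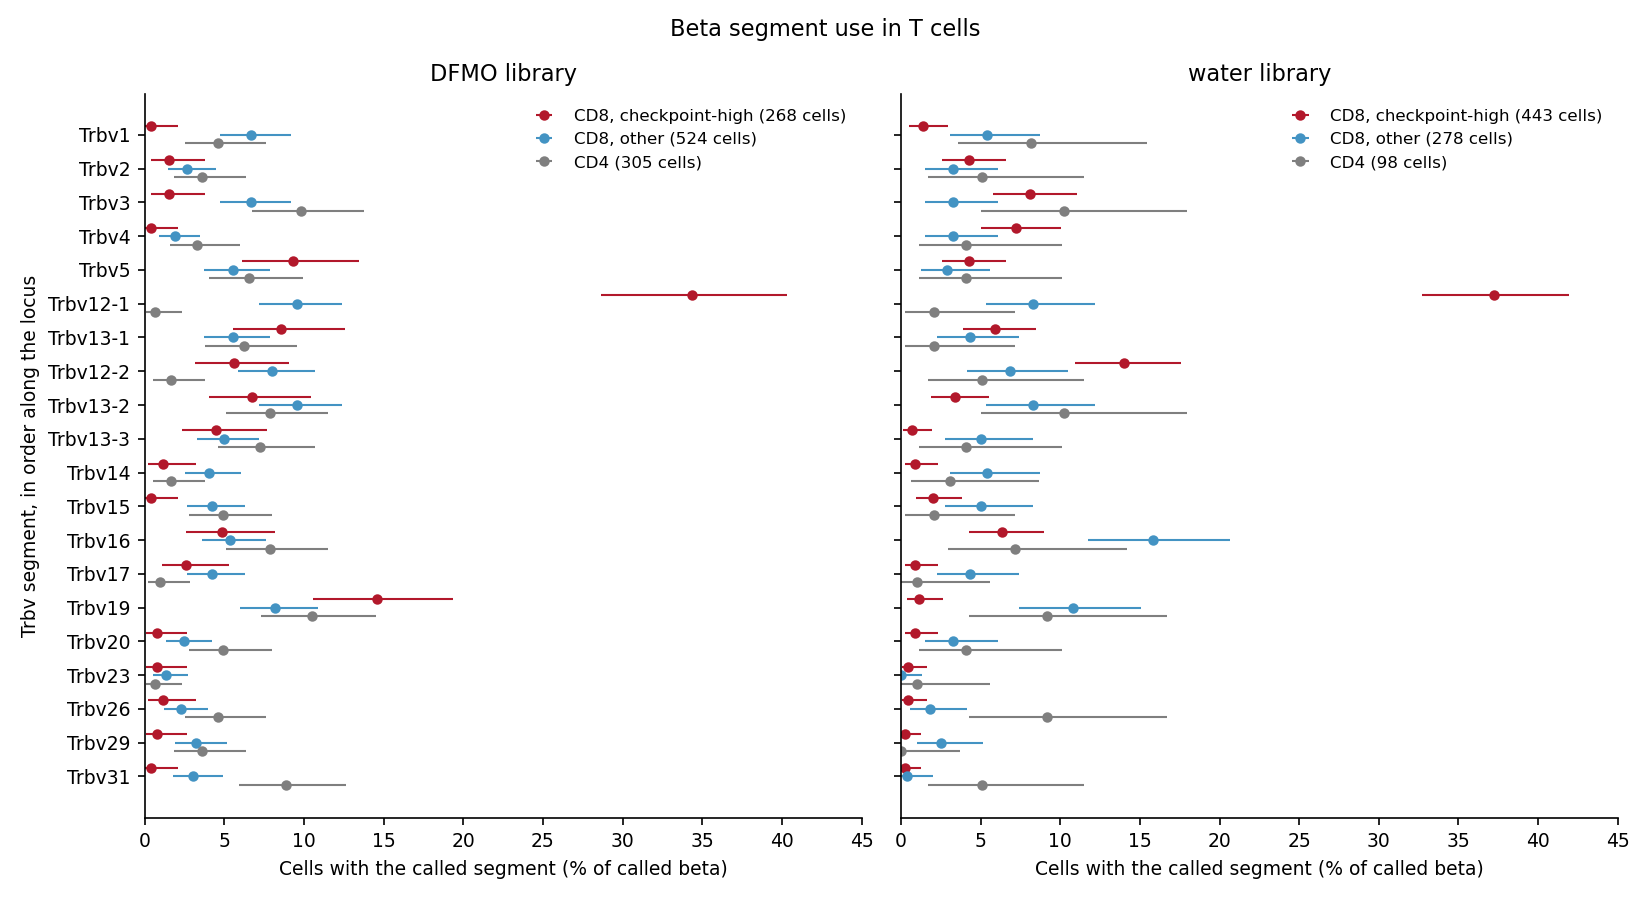
Share of cells with each called Trbv segment (x axis, % of cells with a called beta) by segment in chromosomal order (y axis), in the DFMO library (left) and the water library (right). Points are shares and bars exact 95% binomial intervals; the point of Trbv12-1 in CD8 checkpoint-high cells stands at 34.3% in DFMO and 37.2% in water, while its CD4 point stands at 0.656% and 2.04%.

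Several beta segments went the other way, lower in CD8 checkpoint-high than in other CD8 cells of both libraries. Trbv1, the segment at the upstream end of the locus, was called in 0.373% of DFMO checkpoint-high against 6.68% of other CD8 cells, and in 1.35% against 5.40% in water. Trbv14 stood at 1.12% against 4.01% in DFMO and 0.903% against 5.40% in water. Trbv29 stood at 0.746% against 3.24% in DFMO and 0.226% against 2.52% in water. The upper ends of the intervals of these 3 log2 ratios lay below 0 in both libraries. The points were 1 to 6 checkpoint-high cells for each, so the size of the differences is poorly fixed. Trbv15 was lower in both libraries, with 1 of 268 checkpoint-high cells in DFMO and 9 of 443 in water, but the water interval reached 0.

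Other beta segments differed between the checkpoint-high cells of the libraries. Trbv19 was called in 14.6% (10.6 to 19.4) of DFMO checkpoint-high and 8.21% of other CD8 cells, and in 1.13% (0.367 to 2.61) of water checkpoint-high and 10.8% of other CD8 cells. Trbv3 was called in 1.49% of DFMO checkpoint-high and 6.68% of other CD8 cells, and in 8.13% of water checkpoint-high and 3.24% of other CD8 cells. Trbv4 was called in 1 DFMO checkpoint-high cell and in 32 water ones (7.22%; 4.99 to 10.0). For Trbv19 and Trbv3 the log2 ratio of checkpoint-high over other thus had opposite signs in the libraries. Trbv12-2 was called in 5.60% of DFMO and 14.0% of water checkpoint-high cells, and Trbv5 in 9.33% and 4.29%. Trbv16 had its highest share in other CD8 cells of the water library, at 15.8% (11.7 to 20.7), against 5.34% (3.58 to 7.63) in other CD8 cells of the DFMO library.

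Between CD8 and CD4 cells, Trbv31 and Trbv26 were used more by CD4 cells of both libraries. Trbv31, which lies downstream of the beta constant genes in inverted orientation, was called in 2.15% of DFMO CD8 against 8.85% of CD4 cells, and in 0.277% of water CD8 against 5.10% of CD4 cells. Trbv26 was called in 1.89% against 4.59% in DFMO and in 0.971% against 9.18% in water. The intervals of the log2 ratio lay below 0 in both libraries for these segments. With CD4 and CD8 cells taken from 2 UMIs, the Trbv31 ratio in DFMO was -0.76, against -2.04 from 1 UMI. Trbv20 was also lower in CD8 cells, at 1.89% against 4.92% in DFMO and 1.80% against 4.08% in water, where the interval held 0. Trbv17 was higher in CD8 cells, at 3.66% against 0.984% in DFMO and 2.22% against 1.02% in water, again with a water interval that held 0. The water library gave 98 CD4 cells with a called beta, which limits what can be seen there.

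Among alpha segments the Trav16 family set CD8 checkpoint-high cells apart in both libraries. Trav16 was called in 42 of 224 DFMO CD8 checkpoint-high cells (18.8%; 13.9 to 24.5), against 12 of 389 other CD8 cells (3.08%). In water Trav16 was called in 134 of 375 checkpoint-high cells (35.7%; 30.9 to 40.8), against 15 of 207 other CD8 cells (7.25%). The log2 ratio was 2.60 (1.65 to 3.67) in DFMO and 2.30 (1.53 to 3.18) in water for Trav16, and 2.13 and 2.00 for the family. In CD4 cells Trav16 was called in 1 DFMO and 2 water cells. The copies differed between libraries: Trav16n was called in 3.12% of DFMO and 17.9% of water checkpoint-high cells, and Trav16d-dv11, which can also join the delta chain, in 6.25% and 0.533%. Because the family's exons are nearly identical, how the counting divided reads among Trav16, Trav16n and Trav16d-dv11 was not tested.

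Further alpha segments differed between the checkpoint-high cells of the libraries. Trav14d-3-dv8 was called in 41 DFMO checkpoint-high cells (18.3%; 13.5 to 24.0) and 10 other CD8 cells, and in 1 and 3 water cells. Trav13-2 was called in 19 DFMO checkpoint-high cells (8.48%) and 6 other CD8 cells, and in 1 and 3 water cells. Trav7-5 was called in 1 DFMO checkpoint-high and 10 other CD8 cells, and in 39 water checkpoint-high cells (10.4%; 7.50 to 13.9) and 6 other CD8 cells. Of the 39 alpha segments with at least 10 called CD8 cells in this comparison, Trav10, Trav3-3, Trav6-7-dv9, Trav13-1, Trav1 and Trav14-1 were among those lower in checkpoint-high cells of both libraries, each with an interval that reached 0 in at least 1 of them. The 15 segments of the d copies of the alpha locus together made up 30.8% (24.8 to 37.3) of called alpha in DFMO checkpoint-high cells and 5.33% (3.29 to 8.12) in water checkpoint-high cells. In other CD8 cells these d segments made up 12.9% in DFMO and 10.6% in water. Of the 69 DFMO checkpoint-high cells with a d segment, 41 had Trav14d-3-dv8 and 14 Trav16d-dv11, against 1 and 2 of the 20 water ones. The DFMO sum was thus mostly that of Trav14d-3-dv8 and Trav16d-dv11, given above.

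Alpha and beta calls came in a few recurrent pairs in CD8 checkpoint-high cells. Of 214 DFMO checkpoint-high cells with both chains called, 39 had Trav14d-3-dv8 with Trbv12-1, where the product of the 2 shares gives 14.95 cells, and 24 had Trav16 with Trbv12-1, where it gives 14.6. Trav13-2 with Trbv5 was seen in 15 cells against 1.86 from the shares, Trav16d-dv11 with Trbv12-1 in 12 against 5.23, and Trav6n-6 with Trbv19 in 10 against 1.03. Of 346 water checkpoint-high cells, 89 had Trav16 with Trbv12-1 against 56.9 from the shares, 51 Trav16n with Trbv12-1 against 26.5, and 28 Trav16 with Trbv12-2 against 18.1. Trav7-5 with Trbv4 was also seen in 28 water cells, against 2.87, and Trav13n-1 with Trbv13-1 in 8 against 0.462. Counted by single segments, the libraries thus shared the pair of Trav16 with Trbv12-1 among their 5 most frequent, and the other 4 of each list were not on the other's. Counted by family, Trav16d-dv11 with Trbv12-1 in DFMO and Trav16n with Trbv12-1 in water are the same combination. By any UMI, 85 of 90 DFMO and 154 of 160 water checkpoint-high Trbv12-1 cells with Trav UMIs had a family segment, as given below.

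**Figure D2:**
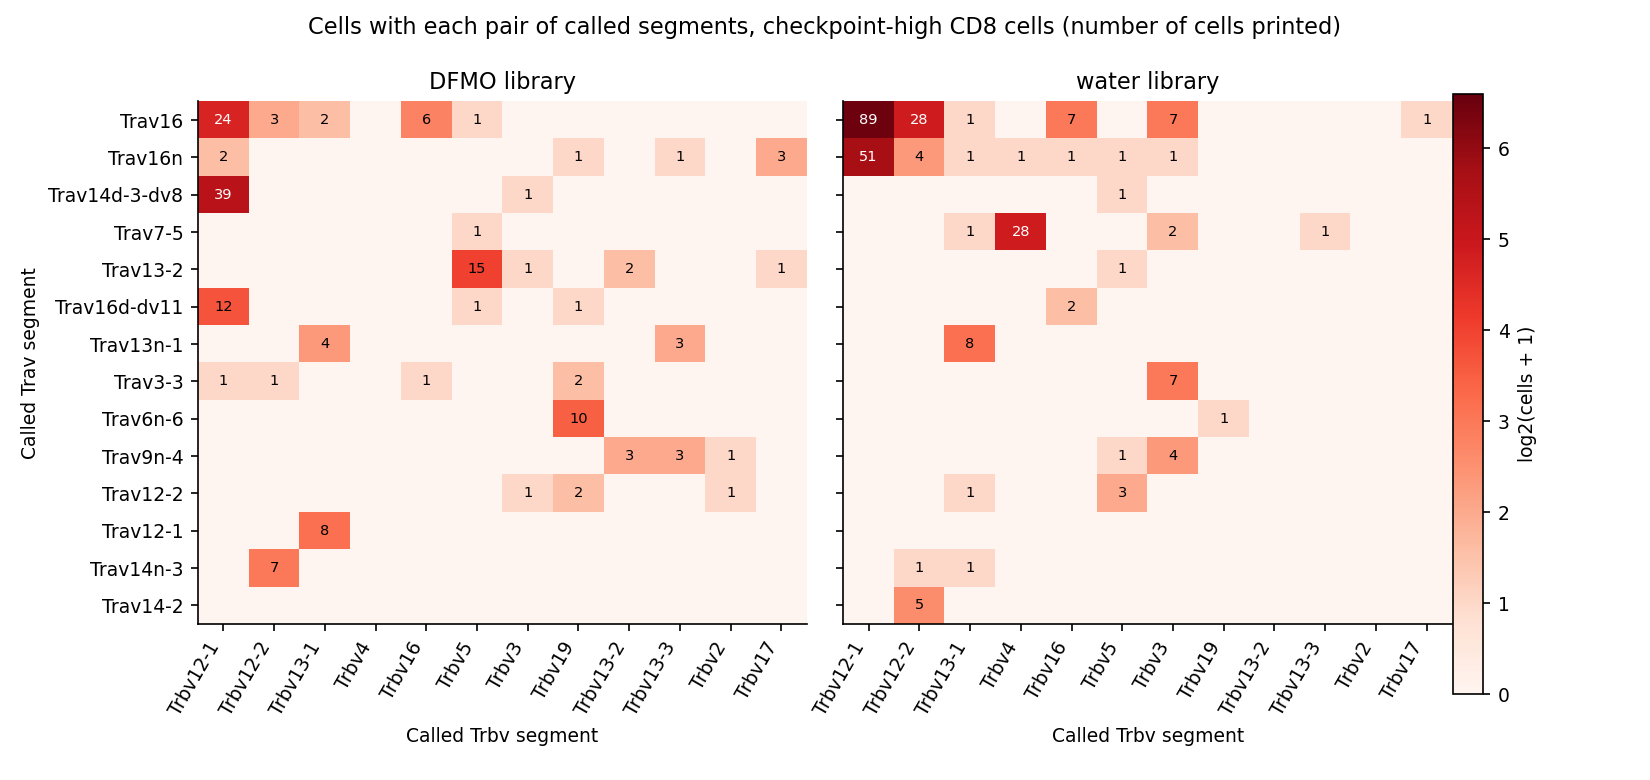
Number of CD8 checkpoint-high cells (printed and, as log2 of cells plus 1, coloured) with each called Trav segment (y axis) and called Trbv segment (x axis), in the DFMO library (left) and the water library (right). Most cells lie in a few squares, with 39 DFMO cells of Trav14d-3-dv8 and Trbv12-1 and 89 water cells of Trav16 and Trbv12-1.

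Pairs found in at least 5 cells held 121 of the 214 DFMO checkpoint-high cells (56.5%) and 246 of the 346 water ones (71.1%). Among other CD8 cells no pair reached 5 of the 370 DFMO cells, and such pairs held 24 of the 180 water cells (13.3%). A minimum of 5 cells is a smaller part of a larger set, so these proportions also depend on set size. The probability for whole pairs, given below, does not. The recurrent pairs of other water CD8 cells were Trav16 with Trbv12-1 in 7 cells, Trav16n with Trbv12-1 in 6, Trav10n with Trbv19 in 6 and Trav1 with Trbv5 in 5. In CD4 cells 1 pair reached 5 cells, Trav6-7-dv9 with Trbv19, in 5 of 224 DFMO cells with both chains called. In cells with neither coreceptor 1 pair did, Trav10 with Trbv20, in 7 of 135 water cells.

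Read by any UMI and not by the leading call, nearly all Trbv12-1 cells of the checkpoint-high set carried a Trav16-family segment. Of checkpoint-high Trbv12-1 cells with any Trav UMI, 85 of 90 in DFMO (94.4%; 87.5 to 98.2) and 154 of 160 in water (96.3%; 92.0 to 98.6) had a family UMI. Where another Trbv was called, 26 of 141 DFMO cells (18.4%) and 70 of 213 water cells (32.9%) had one. In other CD8 cells with Trbv12-1 the libraries parted: 3 of 40 DFMO cells (7.50%; 1.57 to 20.4) and 15 of 19 water cells (78.9%; 54.4 to 93.9) had a family UMI. The proportion among other CD8 cells with another beta was 11.3% in DFMO and 9.66% in water. No Trbv12-1 cell of either set had UMIs of 2 family members.

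Second alpha segments recurred with the same partners. In DFMO, 54 of the 92 checkpoint-high Trbv12-1 cells had Trav14d-3-dv8 UMIs, and 51 of these 54 also had Trav16 UMIs, at medians of 8 and 5 UMIs in positive cells. Trav16d-dv11 was found in 13 DFMO Trbv12-1 cells, of which 8 also had Trav13-1. In water, 40 of the 165 Trbv12-1 cells had Trav17 and 37 of these 40 also had Trav16, while all 18 cells with Trav6-2 and all 10 with Trav12-2 had Trav16n. These second segments were low, with a median of 1 UMI in positive cells for Trav17, Trav6-2 and Trav12-2. Trav8-2, annotated as a pseudogene and lying upstream of Trav16, was found in 23 DFMO and 29 water Trbv12-1 cells. Of these, 19 and 25 also had Trav16, and the median of Trav8-2 was 1 UMI in both libraries. Outside Trbv12-1, 10 of the 25 DFMO Trbv5 cells had Trav9-4, all of them with Trav13-2, and 21 of the 24 water Trbv12-2 cells with Trav14-2 had Trav16. At least 2 Trav segments were found in 62.8% of Trav-positive DFMO and 41.7% of water checkpoint-high cells, against 37.8% and 25.1% of other CD8 cells. Checkpoint-high cells were deeper, at medians of 4885 UMIs in DFMO and 3987.5 in water, against 2238 and 2270.5. The part of depth in these shares was not tested.

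The beta constant genes, which were no part of the selection, also differed between these cells and the rest of the set. Each beta chain uses Trbc1 or Trbc2, depending on which cluster the segment was joined to. Trbc1 UMIs were found in 2 of 85 DFMO cells with Trbv12-1 and the Trav16 family (2.35%) and in 29.0% of the other CD8 checkpoint-high cells with a call. In water they were found in 21.4% of 154 such cells and in 40.1% of the others. Trbc2 UMIs were found in 87.1% of the DFMO cells with the combination against 71.0% of the others. In water they were found in 77 of the 154 cells (50%) against 54.7% of the others, so the Trbc2 share went opposite ways in the libraries. The Trbc1 share was lower in cells with the combination in both.

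Effector genes of these cells were set beside the rest of the checkpoint-high set, in CPM. Gzmk, a granzyme gene, was lower in cells with Trbv12-1 and the Trav16 family in both libraries, at 99.7 against 251 in DFMO and 71.3 against 174 in water. Gzmb, the main granzyme of killer cells, was also lower, at 2136 against 2916 in DFMO and 1300 against 2267 in water. The share of cells with a Gzmb UMI was close, at 75.3% against 75.4% in DFMO and 65.6% against 67.5% in water, so the gap was one of UMIs per cell. The transcription factor gene Eomes stood at 16.3 against 37.4 in DFMO and 6.58 against 18.7 in water. Prf1, the perforin gene, stood at 897 against 807 in DFMO and 1052 against 621 in water. Nkg7, also of the effector list, was higher too, at 4520 against 4467 in DFMO and 5138 against 4705 in water. The DFMO intervals of Nkg7 overlapped, at 4344 to 4701 and 4344 to 4592. Gzmf stood at 439 against 1512 in DFMO and 712 against 307 in water, so Gzmf went opposite ways. Its UMIs came from 10 of 85 DFMO and 27 of 154 water cells with the combination. Mki67, a gene of dividing cells, stood at 97.9 against 119 in DFMO and 121 against 79.6 in water, so it went opposite ways. A Mki67 UMI was found in 21.2% against 18.0% of cells in DFMO and 28.6% against 21.1% in water.

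The narrowing of segment use was summarised as the probability that 2 different cells of a set have the same called segment. For beta it was 16.6% in DFMO and 18.2% in water CD8 checkpoint-high cells, against 5.95% and 7.23% in other CD8 cells and 6.47% and 5.76% in CD4 cells. For alpha it was 8.77% in DFMO and 17.3% in water checkpoint-high cells, against 2.04% and 2.50% in other CD8 cells and 1.90% and 2.35% in CD4 cells. Expressed as equally used segments, this is 6.04 DFMO and 5.51 water beta segments in checkpoint-high cells, and 16.8 and 13.8 in other CD8 cells. For whole pairs the probability was 5.89% in DFMO and 10.3% in water checkpoint-high cells, against 0.139% and 0.602% in other CD8 cells. A cell with 2 alpha segments counts under the one with more UMIs. In DFMO checkpoint-high cells, 39 Trbv12-1 cells were called Trav14d-3-dv8, and 51 of the 54 Trbv12-1 cells with its UMIs also had Trav16. The part of this rule in the alpha and pair differences between libraries was not tested. Beta and alpha calls were both more uneven in CD8 checkpoint-high cells of either library. In CD4 checkpoint-high cells, with 31 DFMO and 30 water beta calls, the beta probability was 7.74% and 5.75%. It was 6.34% and 5.66% in other CD4 cells. The alpha probability of CD4 checkpoint-high cells was 5.41% and 4.62%, from 27 and 26 calls, against 1.86% and 2.26% in other CD4 cells.

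**Figure D3:**
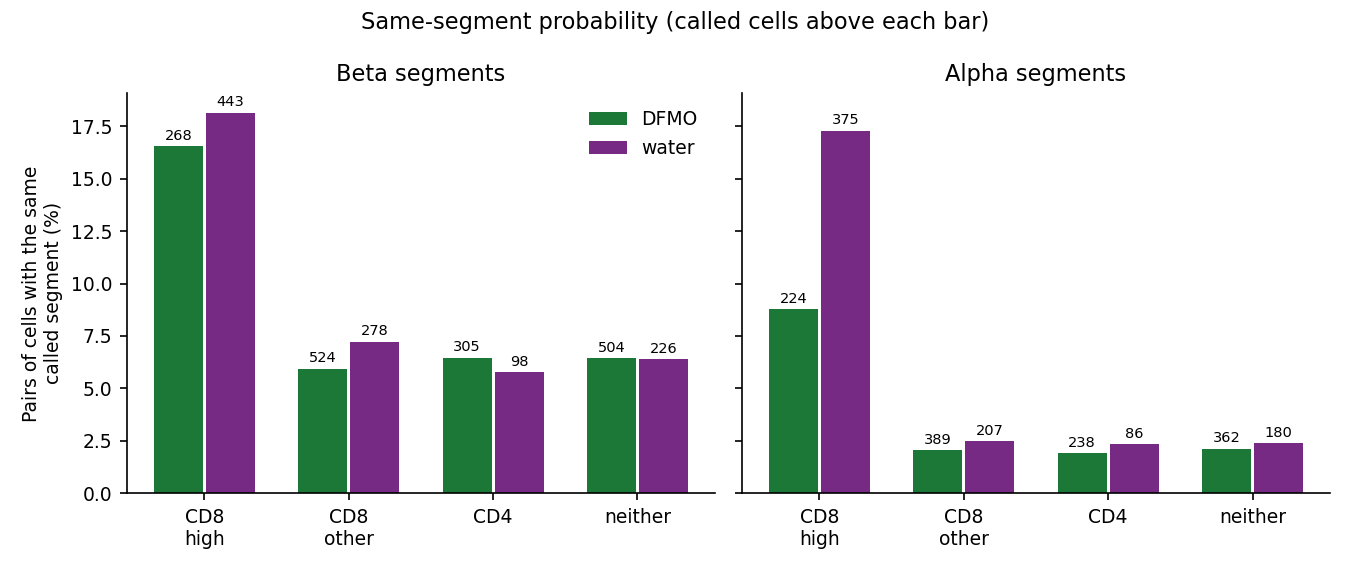
Probability (y axis, % of pairs of cells) that 2 cells of a set have the same called segment, for beta (left) and alpha (right) segments, in the DFMO and water libraries by set (x axis), with the number of called cells above each bar. The highest bars are those of CD8 checkpoint-high cells, at 16.6% and 18.2% for beta and 8.77% and 17.3% for alpha.

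The share of Trbv12-1 went up in steps with the checkpoint UMIs of CD8 cells. In DFMO it was 9.18%, 14.7%, 20% (8 of 40 called cells), 31.1% and 39.6% in cells with 0, 1, 2 to 3, 4 to 7 and at least 8 checkpoint UMIs. In water Trbv12-1 was 4.69%, 16.3%, 23.1%, 41.8% and 41.5% over the same steps. The Trav16 family stood at 6.37%, 7.14%, 22.6%, 23.1% and 32.0% in DFMO and 11.3%, 18.5%, 31.3%, 57.3% and 62.8% in water. These family shares count the leading alpha only, so a cell with more UMIs of another alpha is not in them. For Trbv12-1 the points of cells just outside the threshold, with 1 checkpoint UMI, lay between those of the neighbouring steps. In DFMO this point was 5 of 34 called cells (4.95 to 31.1), an interval that held both neighbouring values. For the family it was 2 of 28 DFMO cells (0.877 to 23.5), which likewise held both. Cells just inside, with 2 to 3 checkpoint UMIs, stood at 20% in DFMO and 23.1% in water for Trbv12-1. Median UMIs per cell also went up over the steps, to 5901 in DFMO and 5363.5 in water at the highest, so depth and checkpoint level cannot be told apart from these shares alone. With segment UMIs taken from cells thinned to 1000 UMIs, an alternative added after the data were seen, the log2 ratio of checkpoint-high over other for Trbv12-1 was 1.76 in DFMO and 2.55 in water. With the sets also made anew from the thinned UMIs, so that checkpoint-high cells that lose checkpoint UMIs count as other, it was 1.61 in DFMO and 0.64 in water. For the Trav16 family this ratio was then 1.87 in DFMO and 0.50 in water, so the size of the water ratios depends on how the sets were drawn.

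**Figure D4:**
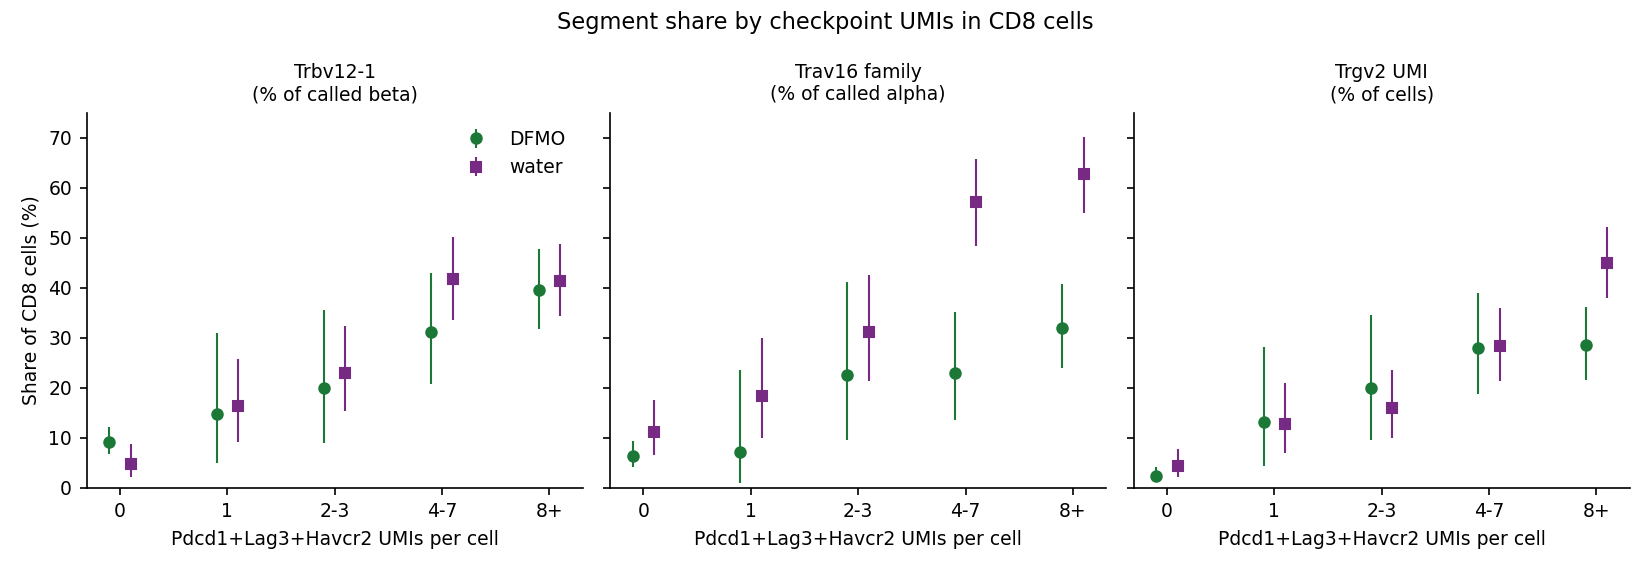
Share of CD8 cells (y axis, %) with Trbv12-1 called, with a Trav16-family segment called and with a Trgv2 UMI, by the sum of Pdcd1, Lag3 and Havcr2 UMIs per cell (x axis), in the DFMO and water libraries. Points are shares and bars exact 95% binomial intervals; Trbv12-1 stands at 9.18% and 4.69% at 0 checkpoint UMIs and at 39.6% and 41.5% at 8 or more.

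Within the CD8 checkpoint-high set the intervals of Trbv12-1 overlapped between dividing and other cells. In CD8 checkpoint-high cells with an Mki67 UMI it was called in 37.3% of DFMO and 43.8% of water cells, and in those without in 33.6% and 35.2%. Foxp3-positive cells without CD8 UMIs, which include regulatory T cells, had a same-segment probability for beta of 6.00% in DFMO and 6.52% in water. Their leading alpha was Trav12-3 in DFMO (7.87%) and Trav10 in water (12 of 75 cells, 16%; 8.55 to 26.3).

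The question of the study was what DFMO changed, and over all Cd3-positive cells Trbv12-1 was called in 152 DFMO cells (9.25%; 7.89 to 10.8), against 199 water cells (18.8%; 16.5 to 21.3). Trbv12-2 stood at 4.63% in DFMO and 9.27% in water, and Trbv31 at 5.05% in DFMO and 2.37% in water. The makeup of the sets differed as well, with checkpoint-high CD8 cells being 285 of 1844 DFMO and 482 of 1345 water cells. Within CD8 checkpoint-high cells the log2 ratio of DFMO over water for Trbv12-1 was -0.12 (-0.50 to 0.26), and within other CD8 cells it was 0.21. Of 13 beta segments with at least 10 called cells in the checkpoint-high set, 4 had at least a 2-fold higher share in DFMO and 5 at least a 2-fold lower one. These counts depended on the setting: 8 were higher with shares weighted by UMIs, 2 without cells of several Trbv or with at least 20 called cells required, and 2 were lower after thinning with the sets made anew. In CPM, which is another quantity than a share of calls, 4.8% of all genes differed 2-fold either way in this set. By share of calls, the 4 higher segments were Trbv19 (log2 ratio 3.69; 2.34 to 5.39), Trbv13-3 (2.73; 0.84 to 5.19), Trbv17 (1.53; -0.44 to 3.75) and Trbv5 (1.12; 0.20 to 2.06). The 5 lower by share of calls were Trbv4 (-4.27; -9.62 to -1.69), Trbv3 (-2.44; -4.40 to -0.96), Trbv15 (-2.44; -7.90 to 0.41), Trbv2 (-1.52; -3.54 to 0.07) and Trbv12-2 (-1.32; -2.24 to -0.49). Of 12 alpha segments, 6 were higher and 2 lower, led by Trav14d-3-dv8 (6.10; 3.54 to 11.4) and Trav7-5 (-4.54; -9.88 to -1.98). Shares of calls exist for segments alone, so the comparison with other genes is given in CPM below.

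Measured in CPM of a set, most segments stood higher in DFMO. In Cd3-positive cells 87 of the 102 members had at least 30 UMIs in the libraries together. Of these, 52 were at least 2-fold higher and 5 at least 2-fold lower in DFMO, where 8.86% of all 11247 genes with as many UMIs were that far apart, 4.46% higher and 4.4% lower. The median log2 ratio was 1.18 over the members and 0.06 over all genes. Of 22 Trbv segments 15 were 2-fold higher and 0 were 2-fold lower. The constant gene Trbc2 had a log2 ratio of 1.31 (1.20 to 1.41), while Trac stood at 0.33, Trbc1 at 0.40, and Cd3d, Cd3e and Cd3g at 0.23, 0.22 and 0.00. The ratio of most segments was thus above that of the CD3 genes in the same cells.

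The members' median stood above that of all genes in each set of cells. In CD8 checkpoint-high cells 22 of 45 measured members were 2-fold higher and 14 were 2-fold lower in DFMO, against 1.61% and 3.19% of 8692 genes (4.8% either way), and the median log2 ratio was 0.92 against 0.03. In other CD8 cells 22 of 56 were higher and 3 lower, against 5.43% and 7.8% of 8017 genes (13.2% either way), and the median was 0.91 against 0.07. In CD4 cells 23 of 43 were higher and 2 lower, against 8.73% and 3.49% of 6220 genes (12.2% either way), and the median was 1.399 against 0.12. In other CD8 and in CD4 cells 0 of 20 and 0 of 19 Trbv segments were 2-fold lower. Trimmed-mean scaling moved the ratios by 0.13 in CD4 cells and by less than 0.1 in the other sets.

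The single members of checkpoint-high cells spread far to both sides. Trav14d-3-dv8 had 494 UMIs (285 CPM) in DFMO and 1 UMI (0.394 CPM) in water, a log2 ratio of 9.50 (7.02 to 14.8). Trbv26 had 113 UMIs (65.3 CPM) in DFMO and 5 (1.97 CPM) in water, although it was called in 3 and 2 cells. Trbv19 had 468 UMIs (270 CPM) in DFMO and 45 (17.7 CPM) in water. On the other side, Trav7-5 had 12 UMIs (6.93 CPM) in DFMO and 280 (110 CPM) in water, and Trav17 had 1 UMI in DFMO and 76 in water. The spread was narrower in other CD8 cells, where Trbv3 stood at 259 CPM in DFMO and 60.5 in water, and Trbv15 at 303 and 138.

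**Figure D5:**
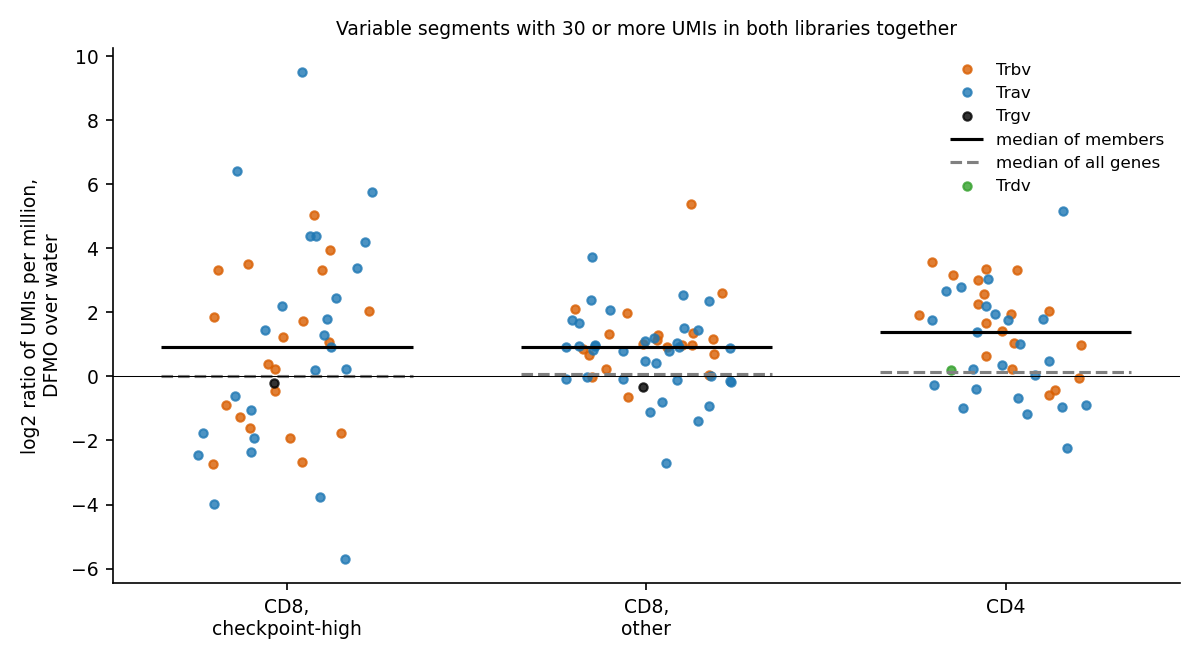
Log2 ratio of CPM, DFMO over water (y axis), of each variable segment with at least 30 UMIs in a set, by set of cells (x axis); solid lines are medians of the members and dashed lines medians of all genes. The medians of the members are 0.92, 0.91 and 1.399, those of all genes 0.03, 0.07 and 0.12, and a segment with 0 UMIs in a library is drawn at the bound set by 3 counts.

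Between sets of the same library a larger share of the members than of all genes differed 2-fold, in both directions. In checkpoint-high over other CD8 cells of DFMO, 10 of 56 measured members were 2-fold higher and 23 were 2-fold lower in CPM, where 8.33% of genes were higher and 9.5% lower (17.8% either way). In water 13 of 41 were higher and 18 lower, where 3.76% of genes were higher and 6.63% lower (10.4% either way). In CD8 over CD4 cells, 12 of 68 members were 2-fold higher and 23 lower in DFMO, where 4.46% and 4.21% of genes were (8.67% either way). In water 18 of 47 were higher and 12 lower, where 9.97% and 5.3% of genes were (15.3% either way). Checkpoint-high and other cells of a library share their preparation, and the depth of their cells differed; trimmed-mean scaling moved the DFMO ratios by -0.12.

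Segments also differed in how many UMIs a calling cell held, which sets how much UMI totals say about cell numbers. In CD8 checkpoint-high cells a called Trbv12-1 had a median of 5 UMIs in DFMO and 6 in water, against 8 and 6 over all called beta segments. Trbv12-2 had 11 in DFMO and 10.5 in water, and Trbv13-1 had 14 and 7.5. Weighted by UMIs, Trbv12-1 was 17.7% of the beta RNA of DFMO and 28.8% of that of water checkpoint-high cells. In other CD8 cells Trbv15 was the fullest, with a median of 21 UMIs in DFMO and 11.5 in water, and Trbv2 had 2 in DFMO.

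Trgv2, the gamma segment, was found in alpha-beta CD8 cells and went with the checkpoint genes. A Trgv2 UMI was found in 77 of 285 DFMO CD8 checkpoint-high cells (27.0%; 21.9 to 32.6) and 18 of 565 other CD8 cells (3.19%; 1.90 to 4.99). In water it was found in 154 of 482 checkpoint-high cells (32.0%; 27.8 to 36.3) and 23 of 332 other CD8 cells (6.93%; 4.44 to 10.2). In CD4 cells 1 of 325 DFMO and 1 of 122 water cells had one, and in cells without Cd3, 1 of 2577 and 1 of 4805. With the cells thinned to 1000 UMIs and the sets kept from all UMIs, Trgv2 was found in 13.7% of DFMO and 15.7% of water checkpoint-high cells, against 1.63% and 2.61% of other CD8 cells. The log2 ratio of the share in checkpoint-high over other cells was 3.08 in DFMO and 2.21 in water from all UMIs, and 0.71 and 0.89 when the sets were made anew after thinning. A beta segment was called in 72 of the 77 DFMO and 149 of the 154 water checkpoint-high cells with Trgv2.

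Trgv2 was spread over the beta segments and not tied to Trbv12-1. In DFMO checkpoint-high cells it was found in 20 of 92 Trbv12-1 cells (21.7%) and 52 of 176 cells with another beta (29.5%). In water Trgv2 was found in 68 of 165 Trbv12-1 cells (41.2%) and 81 of 278 cells with another beta (29.1%), so the libraries went opposite ways. By checkpoint UMIs it was found in 2.47%, 13.2%, 20%, 28.0% and 28.5% of DFMO CD8 cells over the 5 steps, and in 4.33%, 12.9%, 16%, 28.3% and 44.9% of water CD8 cells. Of its stretches of 31 bases, 20.2% occur in transcripts of other genes, and its exon was 95.1% identical to that of Tcrg-V1, so reads could fit both and how the counting divided them was not tested.

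The delta segments were found in few cells, Trdv2-2 and Trdv4 at no higher a share than in cells without Cd3. Trdv1 had a UMI in 21 DFMO and 8 water Cd3-positive cells (1.14% and 0.595%), against 1 of 2577 DFMO and 0 of 4805 water cells without Cd3, where 0 allows a share of up to 0.0624%. Trdv2-2 had a UMI in 47 DFMO and 18 water Cd3-positive cells (2.55% and 1.34%), against 2.68% and 2.10% of cells without Cd3. Trdv4 had one in 17 and 27 Cd3-positive cells (0.922% and 2.01%), against 2.41% and 2.50%, and Trdv5 in 6 and 5 (0.325% and 0.372%), against 0.310% and 0.125%. Medians were 2175 UMIs in DFMO and 3017 in water Cd3-positive cells, against 2226 and 8253 in cells without Cd3. A UMI of any Trdv was found in 109 of 2577 DFMO and 174 of 4805 water cells without Cd3. Those that also lacked the leukocyte gene Ptprc gave 6 of 1368 in DFMO and 20 of 3536 in water. Those with B cell genes gave 3 of 1510 in DFMO and 0 of 111 in water. These UMIs were thus unevenly spread over cells without Cd3. Whether the shares of Trdv2-2 and Trdv4 are background or expression was not tested. The 17 DFMO Cd3-positive cells with Trdv4 held 108 UMIs of it, against 115 UMIs in 62 DFMO cells without Cd3. CD8 checkpoint-high cells held 2 DFMO and 2 water cells with any Trdv UMI, and cells with neither coreceptor 49 of 626 DFMO (7.83%) and 37 of 390 water cells (9.49%), against 4.23% and 3.62% of cells without Cd3. Cells with a UMI of Trdc, the delta constant gene, numbered 30 in each library. Of these 30, 16 DFMO and 14 water cells had Trgv2, 5 and 6 had Trdv4, and 8 and 6 had Trdv2-2. Cells with Trdc were thus a small part of the Cd3-positive cells, at 1.63% in DFMO and 2.23% in water, and a beta segment was called in 16 DFMO and 8 water cells of them.

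The alpha segment of mucosal-associated invariant T cells, Trav1, had a UMI in 23 of 1844 DFMO and 18 of 1345 water Cd3-positive cells. It was not concentrated in checkpoint-high CD8 cells, with 1 DFMO and 2 water cells there. Trav11n, a pseudogene of the family whose other members serve natural killer T cells, had a UMI in 1 DFMO and 3 water cells, and Trav11 and Trav11d are not analysed here.

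A second beta segment was common. At least 2 Trbv segments were found in 34.2% of Trbv-positive DFMO and 19.2% of water Cd3-positive cells. In cells with a call the second segments were 627 in DFMO and 211 in water, of which 62.4% and 72.5% were single UMIs. In CD8 checkpoint-high cells 41 of 94 second segments were single UMIs in DFMO and 49 of 67 in water. Over all Cd3-positive cells, Trbv13-2 was 31.9% of the second segments in DFMO and 36.5% in water, and Trbv12-2 15.6% and 17.5%. The second segment lay upstream of the called one on the chromosome in 65.6% of DFMO and 70.1% of water cases. The second segment was thus concentrated on Trbv13-2 and Trbv12-2 in both libraries, and doublets that remained among the cells were not separated from it.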

How the data were processed

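As deposited by the authors, the values are raw UMI counts in 1 matrix of cells by genes, with a cell table that holds each cell's group and a gene table. Cell Ranger 3.02, Scanpy 1.4.4 and mm10 are named per the submitters' processing notes. The authors' filters on cells, and how reads that fit several near-identical segments were treated, are not stated there. Total counts were 6517952 UMIs over the 1844 DFMO and 6234151 over the 1345 water Cd3-positive cells.

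Cells with at least 200 genes were kept, and doublets called by Scrublet in Scanpy 1.11.5 (expected rate 0.05) were removed, 51 of 4472 in DFMO and 97 of 6247 in water. The value "Control" of the cell table was read as the water group. A call is the segment of a chain with more UMIs than any other; expected pair numbers are products of shares. Proportions have exact Clopper-Pearson intervals and counts exact Poisson intervals, at 95%, which cover counting error only. Ratios of CPM (per-million UMI counts of a set) were computed here for genes with at least 30 UMIs in both sides together, and a sum of 0 was set to 3 counts, a bound. Thinned values draw 1000 UMIs from each cell and leave out shallower cells. With 1 library a group, no test was run, no p-value is given, and called means a 2-fold ratio. The named members were the most often called segments, those past 2-fold in the stated sets, and those of the recurrent pairs. Sequences and annotation are from GENCODE M21. The steps were tested on simulated data. The members and lists were chosen with earlier results of these data known. One marker list and the strata built on it are not reported here.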

Additional observations from a re-analysis of the deposited data

Results flagged for a closer look

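For Trbv3 and Trbv19 the libraries differed in the direction of the checkpoint-high over other ratio of CD8 cells. The log2 ratio of Trbv3 was -2.16 in DFMO and 1.33 in water, and that of Trbv19 was 0.83 in DFMO and -3.26 in water. The difference between libraries was not tested, since each group has 1 library.

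Segment UMIs were also found in cells outside the Cd3-positive set. Trdv2-2 was found in 69 of 2577 DFMO cells without Cd3 UMIs (2.68%) and in 101 of 4805 such water cells (2.10%), and Trdv4 in 2.41% of DFMO and 2.50% of water cells without Cd3. Trav4-3 was found in 46 of 1368 DFMO cells (3.36%) and 157 of 3536 water cells (4.44%) that had UMIs of neither Cd3 nor the leukocyte gene Ptprc, at medians of 2488 and 11803.5 UMIs per cell. Of the stretches of 31 bases in Trav4-3, 41.7% also occur in transcripts of other genes. The source of these UMIs was not tested.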

How the results depend on the processing

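Over 51 results, 388 of 441 values under alternatives moved by less than their counting interval (counts of segments by less than 1.5 times), 52 moved by more and 1 changed sign; the cause was not tested for any of them. Keeping doublets, requiring 500 genes or 2 UMIs for a call, lowering the minimum to 5 called cells and leaving out shared barcodes moved none.

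With Cd3 from 2 UMIs a Trbv UMI was found in 94.5% of DFMO and 85.3% of water cells, with a receptor constant gene UMI required in 94.96% and 86.6%, without cells of several Trbv in 87.5% and 77.0%, thinned with the sets made anew in 82.7% and 68.3%, and thinned with the sets from all UMIs in 79.9% and 63.6%. Weighted by UMIs, Trbv12-1 was 17.7% in DFMO and 28.8% in water checkpoint-high cells and 6.98% in other DFMO CD8 cells, 8 beta segments in place of 4 were 2-fold higher in DFMO checkpoint-high cells, and for Trbv12-1 in CD8 cells the DFMO over water ratio was -0.94 (log2). Without cells of several Trbv, Trbv12-1 was 45.6% of DFMO checkpoint-high cells, their same-segment probability 24.9%, and 2 beta segments were 2-fold higher; with at least 20 called cells also 2 were. With CD4 and CD8 from 2 UMIs, the CD8 over CD4 ratio of Trbv31 in DFMO was -0.76. With the checkpoint threshold at 1 or 4, Trbv12-1 in other water CD8 cells was 4.69% or 12.3%.

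With every cell thinned to 1000 UMIs and the sets made anew, Trbv12-1 was 22.6% of other water CD8 cells, and its log2 ratio of checkpoint-high over other in water was 0.64, that of the Trav16 family 0.50, and that of Trgv2 0.71 in DFMO and 0.89 in water. The alpha same-segment probability was 12.4% in checkpoint-high and 6.54% in other water CD8 cells. A Trav16-family UMI was then found in 78.6% of DFMO and 87.5% of water Trbv12-1 checkpoint-high cells, several Trbv in 22.7% and 11.6% of cells, Trdc in 0.759% and 1.20%, and Trbv in 0.278% and 0.148% of Cd3-negative cells; 2 beta segments in place of 5 were 2-fold lower in DFMO. With only the segments thinned, a family UMI was found in 67.3% of DFMO and 86.6% of water cells and several Trbv in 22.6% and 11.5%; this alternative and that on barcodes were chosen after seeing the data. Checkpoint UMIs are lost by thinning, so checkpoint-high cells pass into the other set when sets are made anew.

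Without the most frequent alpha-beta pair of each library, Trbv12-1 was 23.1% of DFMO and 21.5% of water checkpoint-high cells, its log2 ratio of checkpoint-high over other 1.27 in DFMO, the beta same-segment probability 11.9% and 11.4%, the alpha one 10.3% in water, and the family share 91.5% in water. For Trbv12-1 the DFMO over water log2 ratio in CD8 cells, -0.54 over all of them, was -0.10 without that pair, -0.12 within checkpoint-high cells and 0.21 within other CD8 cells. With trimmed-mean scaling 5 in place of 2 members were 2-fold lower in CD4 cells of DFMO.

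No paired analysis was possible because DFMO and water have a single library each. Depth limits calls in shallow cells.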
